A study of Mus musculus with 10 samples.

Results

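The 10 cardiac developmental transcription factors Gata4, Gata6, Nkx2-5, Tbx5, Tbx20, Mef2a, Mef2c, Mef2d, Hand2 and Hopx were followed in isolated heart muscle cells of the mouse. They were taken by name from the 45882 gene IDs of the series, and all 10 were found and passed the minimum mean level. Their levels were summed from 63 annotated transcripts, 31 of them of Mef2c, 8 of Mef2a and 7 of Mef2d. The libraries came from CTCF knockout mice (4 libraries), from mice with TAC (3 libraries) and from control mice (3 libraries). In TAC (transverse aortic constriction) the aorta is tied partly shut by surgery, so the left ventricle pumps against a higher pressure, and CTCF is a DNA-binding protein that helps to fold chromatin into loops. All mice were C57BL/6, the cells came from the left ventricle, and no mouse gave more than 1 library. The labels give no genotype for the TAC mice and no age, deleted exon or driver of deletion for the knockout. Levels are given as FPKM, fragments scaled to the length of the transcript and the size of the library.

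These factors form the core of the gene network that builds the heart. GATA4 and GATA6 are zinc finger proteins, NKX2-5 is a homeodomain protein, TBX5 and TBX20 are T-box proteins and HAND2 is a basic helix-loop-helix protein. They bind near many of the same muscle genes and several bind one another. The MEF2 proteins bind A/T-rich sites of muscle genes, are held back by class II histone deacetylases and are released by calcium signals. HOPX is a small homeodomain-only protein that does not bind DNA itself and acts with serum response factor. In the adult heart the factors stay on, and several of them take part in the growth response to pressure load.

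Ctcf itself lay between 2.603 and 4.42 FPKM in the knockout libraries, between 5.22 and 7.32 FPKM in the TAC libraries and between 6.80 and 8.81 FPKM in the control libraries, with no overlap of the knockout with either. Levels summed over 7 cardiac myocyte markers reached 15720 to 19850 FPKM in knockout and 17480 to 21630 FPKM in TAC libraries. In control libraries the sum was 21450 to 22210 FPKM. Myh6, Tnni3, Ryr2 and Pln fell in knockout, and Tnni3 and Pln fell in TAC. Actc1 was higher in both (log2 differences 0.32 and 0.40) and did not pass, and Tnnt2 and Ckm did not pass in either. Markers of other cells summed to far lower levels. Of these, 6 fibroblast markers summed to 94.7 to 151 FPKM in knockout, 133 to 147 FPKM in TAC and 56.0 to 103 FPKM in control libraries. Of 5 tested fibroblast markers, Postn (34.3 FPKM in knockout, 49.05 FPKM in TAC and 4.55 FPKM in control) and Col1a1 (9.03, 10.6 and 2.31 FPKM in the same order) rose in both. Dcn was at 69.2 FPKM in knockout, 68.9 FPKM in TAC and 66.3 FPKM in control, and Dcn, Pdgfra and Lum did not pass in either. The 5 macrophage markers summed to 24.2 to 39.2 FPKM in knockout, 32.8 to 38.1 FPKM in TAC and 20.6 to 27.1 FPKM in control libraries. The 5 endothelial markers summed to 39.6 to 64.5 FPKM in knockout, 51.6 to 71.2 FPKM in TAC and 36.5 to 54.4 FPKM in control libraries. The 5 smooth muscle and pericyte markers summed to 32.5 to 51.4 FPKM in knockout, 38.5 to 49.5 FPKM in TAC and 44.2 to 64.9 FPKM in control libraries. In knockout the endothelial marker Emcn rose (12.9 against 6.73 FPKM in control, limma adjusted p = 0.0338). The macrophage marker Adgre1 rose there too (2.97 against 1.58 FPKM in control, adjusted p = 0.0327). The other 4 markers of each of these lists did not pass in knockout, and 0 of either list passed in TAC. No marker of these cells was at 0 throughout a group. The part of other cells' RNA in the differences that follow was not tested. Liver transcripts (Alb, Apoa1 and Ttr) summed to 0.0638 to 0.54 FPKM in knockout and 0.343 to 0.643 FPKM in TAC libraries. In control libraries they summed to 4.31 to 5.77 FPKM, and 1 of the 3 was at 0 in all knockout libraries. Most of the control sum was Alb, at 3.49 to 4.15 FPKM in control and at most 0.0516 FPKM in knockout and TAC libraries. Ttr overlapped between the groups. The source of the Alb in control libraries was not tested. Xist and Y-linked genes marked knockout replicate 4, TAC replicates 1 and 3 and control replicate 2 as male and the others as female.

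The MEF2 proteins are made in several forms, because their mRNAs hold alternative coding exons. The upstream and downstream exons of a pair never stood in the same annotated transcript. They code for the stretch after the MADS and MEF2 domains, and are known as α1 and α2. Of 27 coding Mef2c transcripts, partial ones included, 10 held neither exon in full. The downstream form has been described in mouse muscle, for Mef2d, as the muscle form that escapes an inhibitory phosphorylation. A short exon called β lies further on. Exons of the pairs and short exons are printed because their shares are compared below. Some forms of a gene, such as Mef2d-201 and Mef2d-204, do not differ in these exons. Sequences run 5′ to 3′ on the coding strand and were read from GENCODE transcripts of GRCm38 (mm10). In the upstream exons, capitals mark the 20 codons for the same amino acid in Mef2a, Mef2c and Mef2d. In the downstream exons they mark the 26 codons for the same amino acid in Mef2c and Mef2d.
Mef2a upstream, 132 nt, chr7:67268269-67268400, minus strand: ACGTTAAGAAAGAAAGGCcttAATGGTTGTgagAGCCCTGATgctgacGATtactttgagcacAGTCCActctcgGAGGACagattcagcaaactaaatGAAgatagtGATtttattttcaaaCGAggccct
Mef2c upstream, 144 nt, chr13:83625265-83625408, plus strand: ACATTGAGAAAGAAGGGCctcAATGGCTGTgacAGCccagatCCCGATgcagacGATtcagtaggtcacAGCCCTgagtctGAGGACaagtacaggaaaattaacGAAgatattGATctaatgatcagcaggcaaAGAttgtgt
Mef2c downstream, 138 nt, chr13:83625470-83625607, plus strand: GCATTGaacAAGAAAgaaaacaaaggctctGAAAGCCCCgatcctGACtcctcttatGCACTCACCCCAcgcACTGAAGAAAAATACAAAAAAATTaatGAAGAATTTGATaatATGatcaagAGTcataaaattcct
Mef2d upstream, 138 nt, chr3:88158034-88158171, plus strand: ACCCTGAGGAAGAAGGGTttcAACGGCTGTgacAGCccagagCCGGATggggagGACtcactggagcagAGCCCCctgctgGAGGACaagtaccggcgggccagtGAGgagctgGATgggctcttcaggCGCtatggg
Mef2d downstream, 135 nt, chr3:88158221-88158355, plus strand: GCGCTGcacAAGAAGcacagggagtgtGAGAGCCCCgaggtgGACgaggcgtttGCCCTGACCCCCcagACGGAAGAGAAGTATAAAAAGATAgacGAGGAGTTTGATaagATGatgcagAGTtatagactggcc

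Within 1 gene, the upstream and downstream exons shared an amino acid at 17 of 43 aligned codons in Mef2d and at 21 of 46 in Mef2c. The short exons are given below with acidic codons (aspartate or glutamate) in capitals, which make up 5 of 8 codons in Mef2a, 3 of 8 in Mef2c and 3 of 7 in Mef2d.
Mef2a short, 24 nt, chr7:67244521-67244544, minus strand: tcgGAGGAAGAGGAAttgGAGttg
Mef2c short, 24 nt, chr13:83654598-83654621, plus strand: tctGAGGATgtgGATctgctgttg
Mef2d short, 21 nt, chr3:88161781-88161801, plus strand: actGAGGACcatttaGATctg

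At gene level, 4 of the 10 factors passed in CTCF knockout against control, where 20.8% of 11358 tested genes did. The threshold was an adjusted p under 0.05 in limma (Benjamini-Hochberg, over all tested genes), and the words rose and fell are kept for genes that passed it. Tbx20 rose, beside 10.6% of all tested genes, and Tbx5, Mef2a and Hopx fell, beside 10.2%. In TAC against control 5 factors passed, beside 15.5% of all tested genes. Again Tbx20 rose, where 8.08% of all tested genes rose, and Tbx5, Mef2a, Hopx and also Gata6 fell, where 7.37% fell. Between CTCF knockout and TAC 0 of 10 passed in limma, while 3.28% of all tested genes passed, 1.58% higher and 1.7% lower in knockout. Counted by libraries, 5 factors did not overlap between knockout and control (2 higher and 3 lower), as for 30.8% of all tested genes (14.8% higher and 16% lower). Between TAC and control 5 did not overlap (1 higher and 4 lower), against 31.6% of all tested genes (16% higher and 15.7% lower). Between knockout and TAC 4 did not overlap, all higher in knockout, against 18.1% of all tested genes (8.43% higher and 9.64% lower). Both comparisons with control share the same 3 control libraries, so their likeness is not independent. In bulk libraries, fewer cells of a type and less RNA per cell cannot be told apart.

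**Figure D1:**
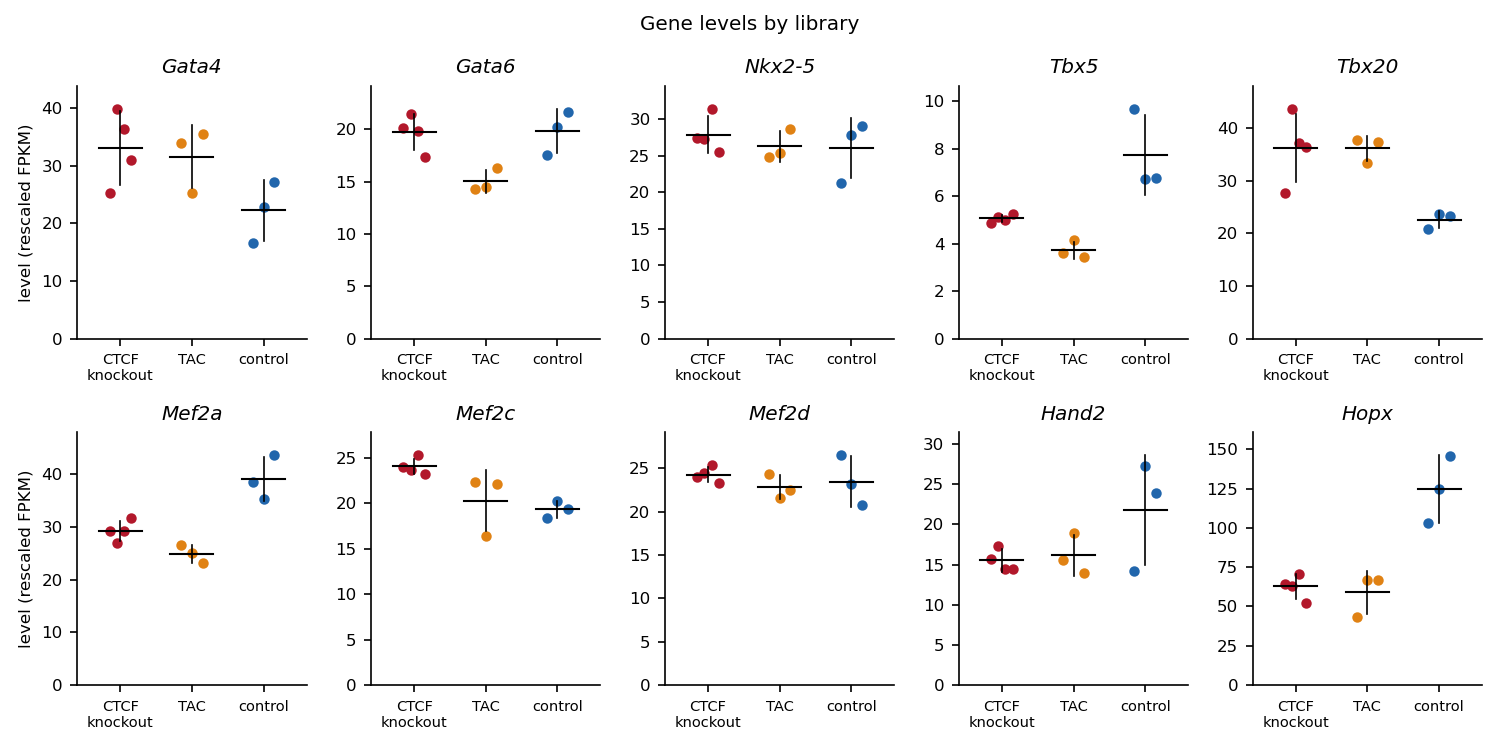
Rescaled FPKM (y axis) of each of the 10 factors in every library, by group (x axis: CTCF knockout, TAC, control). Points are libraries, the horizontal line is the group mean and the vertical line 1 SD to each side; Hopx lay at 52.1 to 70.8 FPKM in knockout and 43.2 to 66.95 FPKM in TAC libraries, all below the control libraries.

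The levels of the 10 factors were of like order except at both ends. Hopx was the highest in every group, at 62.7 ± 7.81 FPKM in knockout (SD, n = 4), 59.0 ± 13.7 FPKM in TAC (SD, n = 3) and 125 ± 21.6 FPKM in control (SD, n = 3). Tbx5 was the lowest in every group, at 5.06 ± 0.166 FPKM in knockout, 3.73 ± 0.365 FPKM in TAC and 7.72 ± 1.69 FPKM in control. The other 8 factors had means from 15.5 to 36.2 FPKM in knockout, 15.01 to 36.2 FPKM in TAC and 19.3 to 39.1 FPKM in control. In control myocytes their order ran from Mef2a over Nkx2-5, Mef2d, Tbx20, Gata4, Hand2 and Gata6 to Mef2c, and below Mef2a each overlapped its neighbours in range. In knockout and TAC myocytes Tbx20 came next after Hopx, followed by Gata4.

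Of the T-box factors, Tbx20 (chr9:24720812-24774303, minus strand) stood higher in knockout and TAC than in control. It is a regulator of adult myocyte function that acts as repressor and activator. It measured 27.7, 43.7, 37.1 and 36.4 FPKM in knockout libraries, 37.7, 33.4 and 37.4 FPKM in TAC libraries and 20.8, 23.7 and 23.4 FPKM in control libraries. Every knockout and TAC library was above every control library. Tbx20 rose by 0.64 on the log2(FPKM + 1) scale in knockout (SE 0.13, limma adjusted p = 0.00658) and rose by 0.66 in TAC (SE 0.14, adjusted p = 0.0109). Knockout and TAC differed by -0.01 (95% interval -0.31 to 0.28).

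Tbx5, which controls chamber and conduction genes (chr5:119832668-119885219, plus strand), went the other way. It measured 4.88, 5.13, 4.98 and 5.25 FPKM in knockout libraries, 3.602, 4.14 and 3.44 FPKM in TAC libraries and 9.68, 6.73 and 6.76 FPKM in control libraries. The 3 groups did not overlap, and the knockout libraries lay between the others. Tbx5 fell by 0.51 in knockout (SE 0.12, adjusted p = 0.0129) and fell by 0.87 in TAC (SE 0.13, adjusted p = 0.00132). The difference of 0.36 between knockout and TAC did not pass (95% interval 0.10 to 0.63, adjusted p = 0.137), and the groups did not overlap, as for 18.1% of all tested genes. These 2 T-box genes thus moved in opposite directions in both knockout and TAC. Tbx5 is active in atrial cells too, and 4 atrial markers (Myl7, Myl4, Sln and Bmp10) summed to 7.30 to 16.1 FPKM in knockout, 4.85 to 8.40 FPKM in TAC and 7.04 to 23.4 FPKM in control libraries. The part of atrial RNA in the Tbx5 difference was not tested.

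Hopx (chr5:77086988-77115121, minus strand) had the largest change of the 10 factors in both comparisons with control. It measured 64.6, 63.3, 70.8 and 52.1 FPKM in knockout libraries, 43.2, 66.8 and 66.95 FPKM in TAC libraries and 103, 125 and 146 FPKM in control libraries. The highest knockout or TAC library stayed below the lowest control library. Hopx fell by 0.97 in knockout (SE 0.17, adjusted p = 0.00284) and fell by 1.08 in TAC (SE 0.19, adjusted p = 0.00311), means of 0.504 and 0.474 times the control mean. Both abundant transcripts fell, Hopx-201 in knockout with a loss of the call in 7 of 17 alternatives, among them each that left out a control library (adjusted p from 0.0109 to 0.108). In TAC the Hopx-201 call was lost in 2 of 17, 1 of them without control replicate 3 (adjusted p up to 0.0651). Hopx-202 lay at 28.7 to 37.1 FPKM in knockout and 26.7 to 38.0 FPKM in TAC against 58.4 to 84.7 FPKM in control, and Hopx-201 at 23.3 to 33.8 FPKM in knockout and 16.5 to 30.2 FPKM in TAC against 44.5 to 61.3 FPKM in control. Hopxos, a gene on the other strand that shares 412 nt of exon with Hopx, fell too, to 2.06 ± 0.415 FPKM in knockout (n = 4) and 1.93 ± 0.215 FPKM in TAC (n = 3) against 3.91 ± 0.912 FPKM in control (n = 3; limma adjusted p = 0.00799 and 0.0103). The kit marks strand, but the setting of the authors' counting is not given in the sources used here, so reads of the 2 genes may not be fully apart.

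The GATA factors differed from each other. Gata4, a driver of hypertrophic gene expression (chr14:63198922-63271692, minus strand), measured 25.2, 39.9, 36.5 and 31.0 FPKM in knockout libraries, 33.9, 25.3 and 35.5 FPKM in TAC libraries and 16.7, 22.9 and 27.2 FPKM in control libraries. The means were higher in knockout and TAC than in control, and each of these groups overlapped control through control replicate 3. The differences were 0.56 in knockout (SE 0.19, adjusted p = 0.0578) and 0.50 in TAC (SE 0.20, adjusted p = 0.123), and neither passed. The knockout difference passed in 5 of 24 alternatives, 2 of which left out control replicate 3 or knockout replicate 1 (adjusted p from 0.0297 to 0.202 over the 24). At transcript level the most abundant form of Gata4, of 3374 nt, rose in both, to 12.0, 15.2, 18.1 and 14.3 FPKM in knockout and 18.4, 14.6 and 18.2 FPKM in TAC against 7.74, 10.5 and 10.2 FPKM in control. Its log2 changes were 0.60 (adjusted p = 0.0292) and 0.79 (adjusted p = 0.0170), adjusted over 17773 tested transcripts. The knockout call was lost in 6 of 17 alternatives, 5 of which left out a single library (control replicate 1 or 3 or knockout replicate 2, 3 or 4). Over the 17, the adjusted p ran from 0.0214 to 0.0974. The TAC call was lost without TAC replicate 1 or 3 (adjusted p up to 0.0590). The form of 3400 nt rose in knockout, by 0.77 (adjusted p = 0.0176), with 5.56 to 7.77 FPKM in knockout and 2.78 to 5.34 FPKM in control. That call was lost without control replicate 1 or 2 (adjusted p up to 0.0616).

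Gata6, the paralog with overlapping roles in hypertrophy (chr18:11052510-11085635, plus strand), measured 20.2, 21.4, 19.9 and 17.3 FPKM in knockout libraries, 14.3, 14.5 and 16.3 FPKM in TAC libraries and 17.5, 20.2 and 21.7 FPKM in control libraries. All TAC libraries were below all others, while knockout and control overlapped almost fully. Gata6 fell in TAC by 0.38 (SE 0.11, adjusted p = 0.0445), and in knockout the difference was -0.01 (95% interval -0.24 to 0.23). Of 24 alternatives, 14 lost the TAC call (adjusted p from 0.0226 to 0.168 over the 24), and 8 of these left out a single library, which was control replicate 2 or 3, knockout replicate 1, 2 or 3 or any TAC library. The test of knockout against TAC gave a difference of 0.37 that did not pass (adjusted p = 0.0853).

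Nkx2-5, the homeodomain factor of the cardiac lineage (chr17:26838664-26841565, minus strand), measured 27.4, 27.3, 31.4 and 25.5 FPKM in knockout libraries, 24.9, 25.3 and 28.7 FPKM in TAC libraries and 21.3, 27.8 and 29.1 FPKM in control libraries. The 3 groups overlapped. Its differences from control were 0.10 in knockout (95% interval -0.16 to 0.37) and 0.02 in TAC (95% interval -0.26 to 0.30). Hand2, needed for the ventricle in the embryo (chr8:57320983-57324517, plus strand), measured 15.7, 17.4, 14.4 and 14.5 FPKM in knockout libraries, 15.6, 19.0 and 14.0 FPKM in TAC libraries and 14.1, 27.2 and 23.9 FPKM in control libraries. Control replicate 1 sat with the knockout and TAC libraries and the other 2 controls stood above all of them. The differences, -0.42 in knockout (adjusted p = 0.140) and -0.37 in TAC (adjusted p = 0.244), did not pass, and without control replicate 1 they were -0.69 (adjusted p = 0.00658) and -0.64 (adjusted p = 0.0153). ENSMUSG00000100348, a gene on the other strand that shares 443 nt of exon with Hand2, measured 25.9, 27.7, 25.9 and 25.3 FPKM in knockout, 19.6, 33.9 and 27.8 FPKM in TAC and 25.6, 43.5 and 41.6 FPKM in control libraries, with the same control library low.

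**Figure D2:**
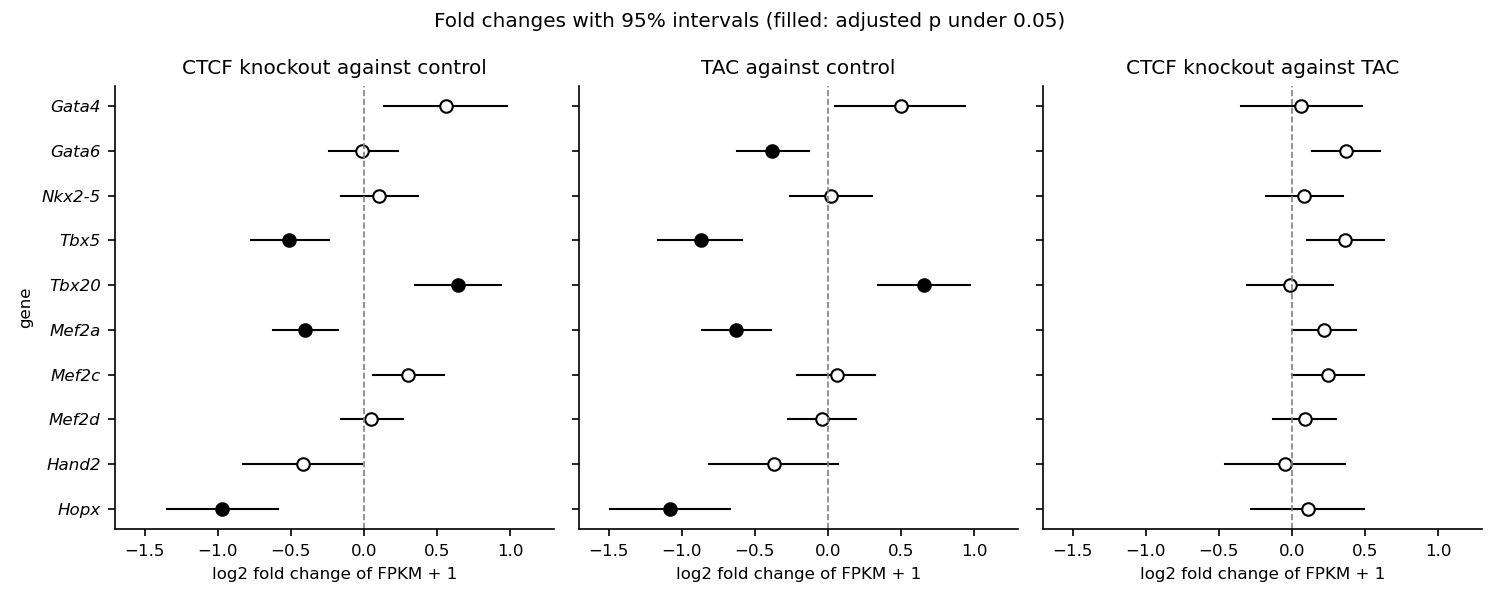
Log2 fold change of FPKM + 1 (x axis) of each factor (rows) in CTCF knockout against control, TAC against control and CTCF knockout against TAC, with limma's 95% intervals; filled points have an adjusted p under 0.05. Tbx20 lies to the right of 0 and Tbx5, Mef2a and Hopx to the left in both comparisons with control, and no point is filled between knockout and TAC.

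Of the MEF2 genes, Mef2a, the most abundant of them in control myocytes (chr7:67231163-67372858, minus strand), was lower in knockout and TAC than in control. It measured 29.2, 27.0, 29.1 and 31.7 FPKM in knockout libraries, 26.5, 25.05 and 23.1 FPKM in TAC libraries and 38.4, 35.4 and 43.6 FPKM in control libraries. The 3 groups did not overlap, with TAC the lowest. Mef2a fell by 0.40 in knockout (SE 0.10, adjusted p = 0.0152) and fell by 0.63 in TAC (SE 0.11, adjusted p = 0.00290), and the knockout call was lost without rescaling of the libraries and without control replicate 3 (adjusted p over 24 alternatives from 0.00938 to 0.133). Knockout and TAC differed by 0.22 (95% interval 0.00 to 0.44, adjusted p = 0.268).

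Mef2c, the form needed for the looping heart tube (chr13:83504034-83667080, plus strand), measured 24.01, 23.7, 25.3 and 23.2 FPKM in knockout libraries, 22.4, 16.4 and 22.1 FPKM in TAC libraries and 18.4, 20.2 and 19.4 FPKM in control libraries. The knockout libraries lay above all TAC and control libraries, as for 14.8% of all tested genes against control. The knockout difference of 0.30 did not pass (SE 0.11, adjusted p = 0.0787), and it passed in 4 of 24 alternatives, among them that without TAC replicate 2 (adjusted p over all of them from 0.0291 to 0.180). In TAC the difference was 0.06 (95% interval -0.21 to 0.32). Mef2c is also expressed in endothelial cells, and the part of endothelial RNA was not tested.

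Mef2d, the form required for the stress response of the mouse heart (chr3:88142372-88172086, plus strand), measured 23.98, 24.4, 25.4 and 23.3 FPKM in knockout libraries, 24.3, 21.6 and 22.6 FPKM in TAC libraries and 26.5, 23.2 and 20.7 FPKM in control libraries. The groups overlapped, and the differences from control were 0.05 in knockout (95% interval -0.16 to 0.27) and -0.04 in TAC (95% interval -0.27 to 0.19). In control myocytes Mef2a thus stood above Mef2d and Mef2c, while in TAC myocytes the ranges were 23.1 to 26.5 FPKM for Mef2a, 16.4 to 22.4 FPKM for Mef2c and 21.6 to 24.3 FPKM for Mef2d.

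The most abundant transcript of Mef2a, Mef2a-208, holds the upstream and short exons. It measured 18.5, 18.9, 18.4 and 22.6 FPKM in knockout libraries, 19.9, 17.2 and 16.5 FPKM in TAC libraries and 31.3, 26.2 and 32.1 FPKM in control libraries. It fell by 0.58 in knockout (adjusted p = 0.00920) and fell by 0.71 in TAC (adjusted p = 0.00694). Mef2a-201 and Mef2a-203 lack both of these exons. Mef2a-201 measured 7.84, 5.55, 5.27 and 3.40 FPKM in knockout libraries, 2.99, 4.16 and 3.76 FPKM in TAC libraries and 0.00330, 4.18 and 4.09 FPKM in control libraries. Mef2a-203 measured 2.42, 1.94, 4.04 and 5.003 FPKM in knockout libraries, 3.21, 3.21 and 2.53 FPKM in TAC libraries and 6.47, 4.46 and 6.52 FPKM in control libraries. All TAC libraries of Mef2a-203 were below all control libraries, while knockout overlapped control. Its differences were -0.69 in knockout (SE 0.24, adjusted p = 0.0828) and -0.76 in TAC (SE 0.26, adjusted p = 0.0912), of like size to those of Mef2a-208, and did not pass. The knockout difference of Mef2a-203 passed in 2 of 17 alternatives, 1 of them without knockout replicate 4 (adjusted p over the 17 from 0.0337 to 0.205). Mef2a-201 gave 1.09 in knockout (SE 0.51, adjusted p = 0.187) and 0.63 in TAC (SE 0.54, adjusted p = 0.510), which did not pass. The authors' Cufflinks interval of Mef2a-201 reached 499% of its value to each side in 1 library, so the split between these forms is uncertain.

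As a share of Mef2a, the upstream exon was carried by 64.3%, 71.6%, 66.4% and 72.9% of the transcripts in knockout libraries, 76.2%, 69.9% and 72.4% in TAC libraries and 82.9%, 75.2% and 75.2% in control libraries. All 4 knockout libraries were below all 3 control libraries. How often shares in other genes did not overlap is not given here. By gene level 30.8% of all tested genes did not overlap in knockout against control. The mean share was 68.8 ± 4.10% in knockout (n = 4), 72.8 ± 3.17% in TAC (n = 3) and 77.7 ± 4.43% in control (n = 3). The difference of -8.94 points between knockout and control had an exact permutation p of 0.0571 (two-sided), against a smallest possible p of 0.0286. Adjusted over 21 exon tests (7 shares in 3 comparisons) it was 0.45, and it did not pass. The short exon of Mef2a had the same shares, and both were counted as 1 measure.

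In Mef2d the exon that was lower in knockout libraries was the downstream one. It was carried by 18.3%, 13.2%, 13.7% and 17.2% of its transcripts in knockout libraries, 18.1%, 20.9% and 17.3% in TAC libraries and 20.8%, 20.8% and 22.3% in control libraries. All knockout libraries were below all control libraries, again without a share over other genes to set it against. The means were 15.6 ± 2.54% in knockout (n = 4), 18.8 ± 1.93% in TAC (n = 3) and 21.3 ± 0.909% in control (n = 3), with a difference of -5.70 points in knockout (exact permutation p = 0.0571, 0.45 adjusted). The short exon of Mef2d was carried by 21.7 ± 4.83% in knockout, 16.3 ± 5.85% in TAC and 15.8 ± 3.84% in control, and the groups overlapped.

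In Mef2c the downstream exon was carried by 14.8%, 19.7%, 20.4% and 27.2% in knockout libraries, 32.0%, 23.0% and 23.2% in TAC libraries and 39.1%, 23.4% and 35.9% in control libraries. The highest knockout library lay above the lowest control library, and the difference of -12.3 points gave an exact permutation p of 0.0857 (0.45 adjusted). This share left out Mef2c-217, which neither holds the whole downstream exon nor spans it. Mef2c-217 made up 12.9 ± 5.57% of Mef2c in knockout, 14.0 ± 3.56% in TAC and 12.6 ± 6.06% in control. The means and the overlap of the downstream share thus depend on how this form is counted. The upstream exon of Mef2c was carried by 50.8 ± 4.03% in knockout, 52.2 ± 4.60% in TAC and 49.4 ± 5.28% in control. The short exon of Mef2c was at 42.1 ± 3.51%, 40.8 ± 4.36% and 44.2 ± 2.58% in the same order. Both overlapped between groups. A longer start of the last coding exon, of 96 nt and known as the γ region, was carried by 42.9 ± 2.36% in knockout, 37.0 ± 6.28% in TAC and 42.4 ± 0.777% in control. None of the 21 exon tests passed after adjustment, where the lowest adjusted p was 0.45. The design all but fixed this outcome, since 1 exon at the smallest permutation p of 0.0286 adjusts to 0.6, and 13 of the 14 tests of 4 against 3 libraries would have had to reach it to pass.

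**Figure D3:**
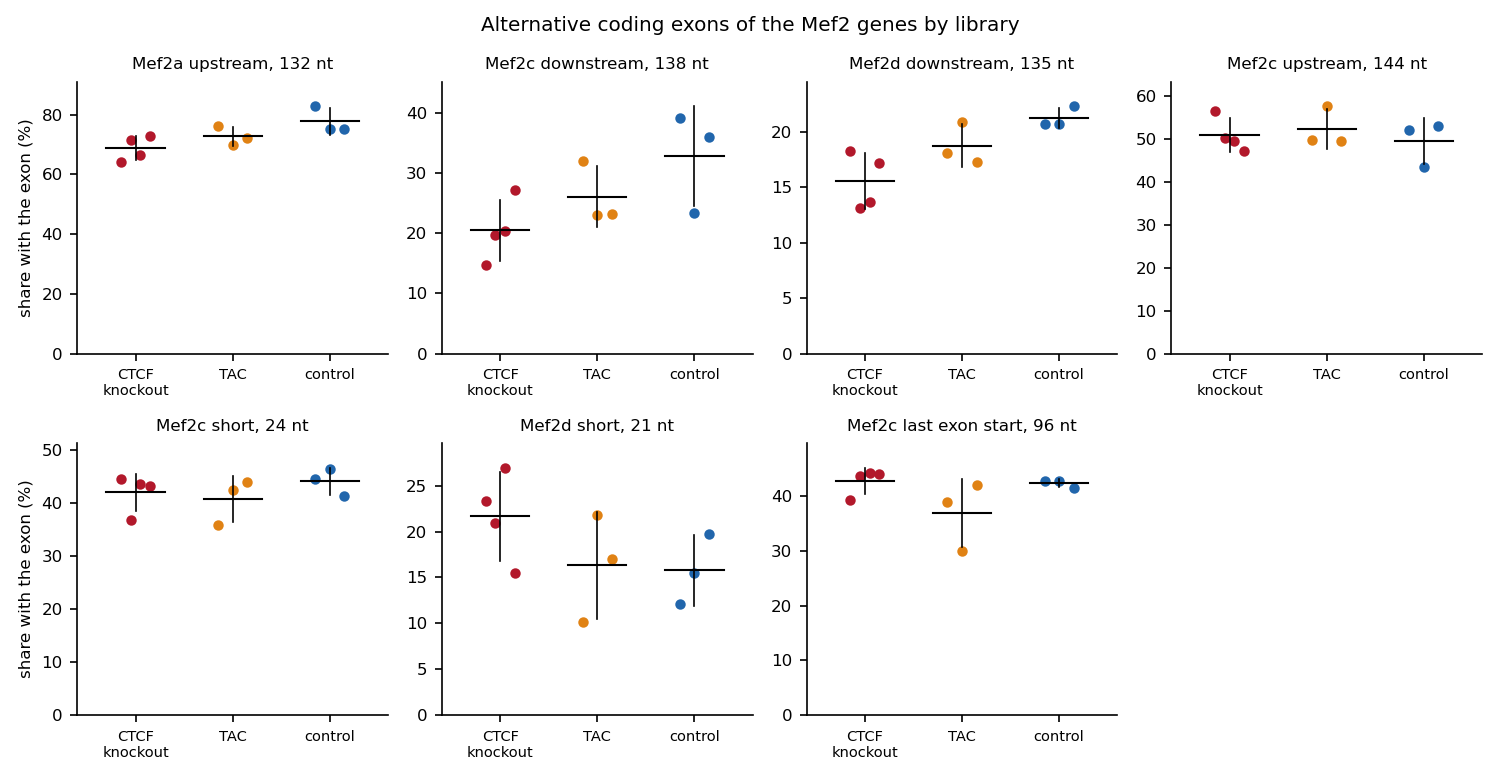
Share of each gene's informative transcripts that carry an alternative coding exon (y axis, percent) in every library by group (x axis). Points are libraries and lines the mean with 1 SD to each side; the Mef2a upstream exon lies at 64.3% to 72.9% in knockout and 75.2% to 82.9% in control libraries, and the Mef2d downstream exon at 13.2% to 18.3% in knockout and 20.8% to 22.3% in control libraries.

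By transcript, 14 Mef2 transcripts with a mean share of 5% to 95% were tested as a share of their gene. In limma on arcsine-transformed shares 0 of 14 were called in each comparison. An unadjusted p under 0.05 was seen for 5 of 14 in knockout against control, 1 of 14 in TAC against control and 0 of 14 in knockout against TAC, where 12.4%, 10.2% and 5.57% of all tested transcripts had one. Over all genes 0.238%, 0.0686% and 0.00914% of 21875 transcripts were called by share, so few calls were made anywhere. The most abundant form of Mef2d, Mef2d-201, held 45.4 ± 4.21% in knockout, 44.5 ± 4.19% in TAC and 47.7 ± 3.12% in control. In Mef2c no form held a majority, and Mef2c-212 led with 24.7 ± 1.77% in knockout, 24.4 ± 1.47% in TAC and 26.7 ± 3.50% in control.

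Counted as levels, 9 of 27 tested transcripts of the 10 factors were called in knockout against control, 7 of 27 in TAC against control and 0 of 27 between knockout and TAC, beside 14.6%, 9.94% and 0.945% of all tested transcripts. Those in knockout were the 2 Gata4 forms of 3374 and 3400 nt, the Tbx20 forms of 6436 and 1793 nt and Mef2c-230, which rose, and the Tbx5 form of 3942 nt, Mef2a-208, Hopx-201 and Hopx-202, which fell. The knockout call of the Tbx5 form was lost in 2 of 17 alternatives, 1 of them without control replicate 1 (adjusted p up to 0.0783). In TAC they were the Gata4 form of 3374 nt and both Tbx20 forms, which rose, and the same 4 that fell. The Tbx20 form of 1793 nt measured 2.53, 4.10, 5.01 and 1.47 FPKM in knockout libraries, 2.02, 3.99 and 2.30 FPKM in TAC libraries and 0.562, 0.936 and 0.401 FPKM in control libraries, up by 1.32 (adjusted p = 0.0176) and 1.19 (adjusted p = 0.0452). Its call was lost in 2 of 17 alternatives for knockout, those without control replicate 1 or 3 (highest adjusted p 0.0578), and in 8 of 17 for TAC, those without any 1 control or TAC library or without knockout replicate 1 or 2 (highest adjusted p 0.133). The Tbx20 form of 6436 nt lost its call in 8 of 17 alternatives for knockout and 11 of 17 for TAC, among them each that left out a control library (adjusted p from 0.0105 to 0.0986 and from 0.0217 to 0.119). Mef2c-230 was listed at 0 in control replicate 2, close to 0 in control replicate 3 and at 1.02 FPKM in control replicate 1, and its call was lost in 7 of 17 alternatives (adjusted p from 0.0127 to 0.136). Leaving out control replicate 1 or 3 left 4 of 27 transcripts called in knockout, and leaving out knockout replicate 2 left 5. In TAC 4 of 27 were called without TAC replicate 1 or without TAC replicate 3.

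**Figure D4:**
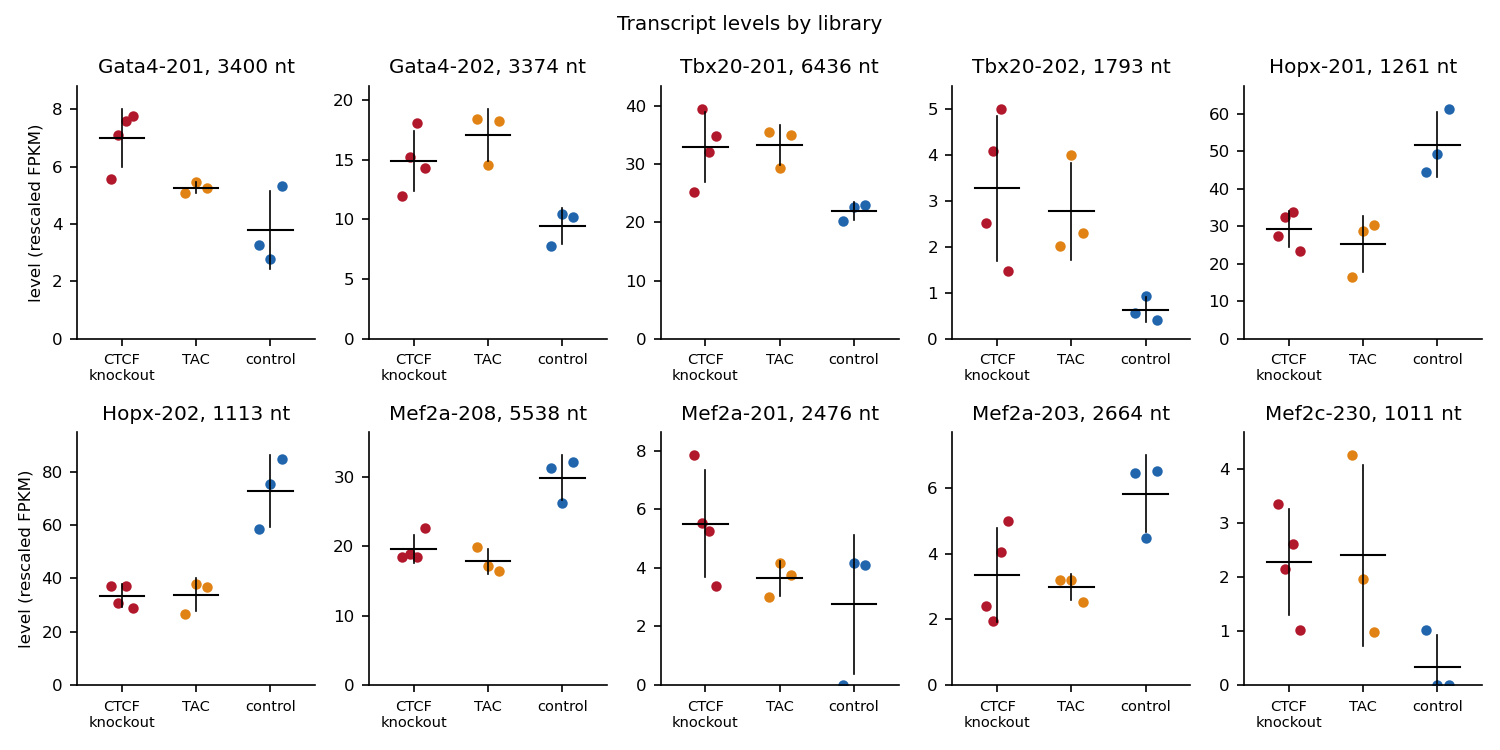
Rescaled FPKM (y axis) of 10 transcripts of Gata4, Tbx20, Hopx, Mef2a and Mef2c in every library by group (x axis), with the mean and 1 SD to each side. The Gata4 form of 3374 nt and both Tbx20 forms lie higher in knockout and TAC than in control libraries, and Mef2a-208 and both Hopx forms lie lower.

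Other cardiac lineage factors were mostly low in these cells, and 8 of 20 listed passed the minimum mean level. Of these 8, 2 rose and 0 fell in knockout against control, beside 10.6% and 10.2% of all tested genes. In TAC 0 were called, beside 15.5%. Irx3, a homeodomain factor of ventricular conduction, rose by 0.88 (SE 0.11, adjusted p = 0.000387), to 8.02 FPKM in knockout against 3.91 FPKM in control, with 4.76 FPKM in TAC. It also rose in knockout against TAC, by 0.65 (adjusted p = 0.0136). Irx5, its neighbour gene with a role in repolarization gradients, rose by 0.47 in knockout (adjusted p = 0.0183). Irx4 and Foxc1 gave 0.28 (adjusted p = 0.267) and 0.25 (adjusted p = 0.299).

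Of the partners and cofactors of these proteins, 19 were tested. In knockout 2 rose and 0 fell, beside 10.6% and 10.2% of all tested genes, so the count that rose lay near that share. In TAC 0 were called, beside 15.5%. The Hippo pathway coactivators Wwtr1 and Yap1 rose by 0.56 (adjusted p = 0.00376) and 0.38 (adjusted p = 0.0190) in knockout. Zfpm2, the FOG2 partner of GATA4, gave -0.47 (adjusted p = 0.0733), and Myocd, the serum response factor coactivator, gave 0.44 (adjusted p = 0.0806). Zfpm1 was not analysed here.

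Of genes that repress MEF2 or carry signals to it, 17 were tested. In knockout 2 rose and 4 fell, beside 10.6% and 10.2% of all tested genes. In TAC 1 rose and 2 fell, beside 8.08% and 7.37%. Rcan1, a calcineurin inhibitor that is itself induced by calcineurin, rose by 1.57 in knockout (adjusted p = 0.00335) and 2.42 in TAC (adjusted p = 0.000552). Camk2a, a calcium/calmodulin kinase gene, fell by 0.88 in knockout (adjusted p = 0.000898) and fell by 0.69 in TAC (adjusted p = 0.00776). In knockout the calcineurin subunits Ppp3r1 and Ppp3cb fell by 0.50 (adjusted p = 0.00817) and fell by 0.57 (adjusted p = 0.0409), the p38 kinase gene Mapk14 fell by 0.51 (adjusted p = 0.0139), and Camk2b rose by 0.58 (adjusted p = 0.00943). In TAC Hdac4, a class II histone deacetylase that holds MEF2 inactive, fell by 1.115 (adjusted p = 0.0256), to 5.80 FPKM against 14.9 FPKM in control, with 8.52 FPKM in knockout, where the difference of -0.63 did not pass (adjusted p = 0.133). The Hdac4 difference between knockout and TAC was 0.49 (adjusted p = 0.384).

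Of genes known as targets of these factors in heart muscle, 29 were tested. In knockout 7 rose and 7 fell, beside 10.6% and 10.2% of all tested genes. In TAC 11 rose and 6 fell, beside 8.08% and 7.37%. The medians in knockout and TAC were 0.04 and 0.15, beside -0.01 and 0.00 over all tested genes. The natriuretic peptide gene Nppa, a target of GATA4, NKX2-5 and TBX5, rose by 4.90 in knockout (adjusted p = 1.55e-06) and 5.24 in TAC (adjusted p = 1.94e-06). Ankrd1, a muscle ankyrin repeat protein, rose by 3.52 (adjusted p = 1.25e-05) and 3.18 (adjusted p = 5.41e-05). The MEF2A target Xirp2, a protein of the intercalated disc region, rose by 1.13 in knockout (adjusted p = 0.000314) and 2.16 in TAC (adjusted p = 1.30e-05), and it was lower in knockout than in TAC by 1.03 (adjusted p = 0.00413). Kcnd2, a potassium channel subunit of the transient outward current, fell by 1.60 (adjusted p = 3.23e-05) and fell by 1.21 (adjusted p = 0.000378). Acta1 was not analysed here.

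**Figure D5:**
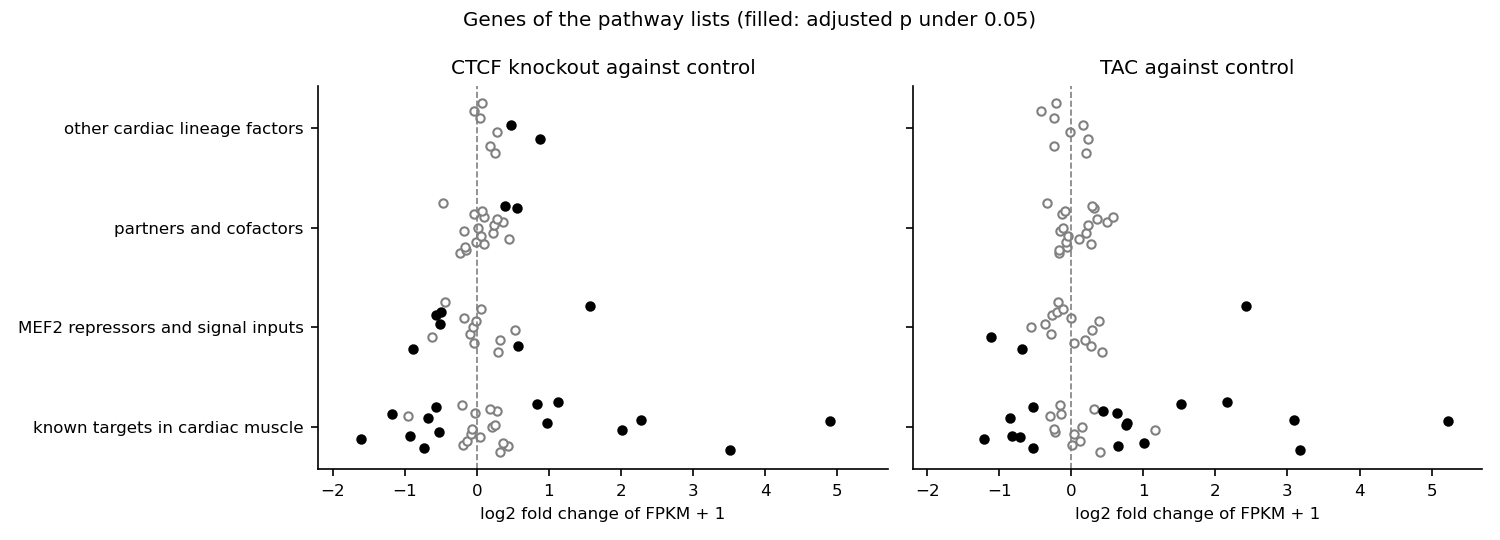
Log2 fold change of FPKM + 1 (x axis) of each tested gene in 4 lists (rows) for CTCF knockout against control and TAC against control; filled points have an adjusted p under 0.05. The target list runs from -1.60 (Kcnd2) to 4.90 (Nppa) in knockout, and the lineage factors and cofactors stay within about 1 unit of 0.

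Genes whose log2 level ran most like each factor over the 10 libraries were sought among protein-coding genes, as a description of 3 groups of libraries and without a test. For Tbx5 they were Syde2 (Pearson r = 0.975) and Atg16l2 (r = 0.958). For Tbx20 they were 1110002E22Rik (r = 0.971) and Ulk3 (r = 0.963), and for Mef2a Pcnp (r = 0.976) and 2610021A01Rik (r = 0.971). For Hopx they were Zfp97 (r = 0.973) and Acadm (r = 0.967) (a fatty acid oxidation gene), and for Mef2c Nrp1 (r = 0.970) and Rbck1 (r = 0.948). Gata4 ran most like Msl1 (r = 0.951) and Zfp146 (r = 0.940), Gata6 like Zfp869 (r = 0.949) and Rps27 (r = 0.948), and Nkx2-5 like Mrps11 (r = 0.941) and Tbca (r = 0.935). Mef2d ran most like 1700037C18Rik (r = 0.933) and Frmd8 (r = 0.919), and Hand2 like the mitochondrial gene mt-Co2 (r = 0.936) and Snap29 (r = 0.926).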

How the data were processed

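Deposited Cufflinks transcript files of 10 libraries gave an FPKM for 109869 annotated transcripts, normalized by the authors for transcript length and library size. The submitters' processing notes name the build mm10, the aligners Bowtie2 and TopHat2 2.1.0, and Cufflinks 2.2.1 with Cuffdiff. The labels call the molecule polyA RNA while their protocol describes ribosomal RNA removal with a stranded kit. The FPKM files used here carry no counts: depth is unknown, and errors are the spread between libraries. Median coverage per unit of FPKM ran from 3.90 to 6.09 over the libraries.

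FPKM was summed by gene ID. Left out were 22 gene IDs at 0 in some libraries with a median of 100 FPKM or more in the rest, and 7781 with a longest transcript under 300 nt. Libraries were rescaled by median ratios (factors 0.912 to 1.10), and printed levels are rescaled. Genes with a mean of at least 1 FPKM were tested as log2(FPKM + 1), which understates changes of low genes, with limma 3.58.1 in R 4.3.3 over all 10 libraries, with a variance trend. P values are two-sided with Benjamini-Hochberg adjustment over 11358 genes. Transcript levels (17773) and arcsine square root shares (21875 transcripts with a mean share of 5% to 95%) were fitted likewise. Exon shares set transcripts that hold the exact coding exon, partial transcripts included, against those that skip it with coding exons on both sides. The share of the 96 nt start came from transcripts with a common end of the last coding exon. Shares of different exons of a gene can thus rest on different transcripts. All exon shares were compared by exact permutation tests over libraries. The models were tested on simulated data.

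Transcript names and exons came from GENCODE of GRCm38, the files' build. The members and gene lists were chosen with earlier results of these data known. Named were the 10 factors, up to 4 genes of each list by adjusted p with those needed for small counts, Mef2 transcripts of at least 10% share and the 2 genes most alike each factor. The alternatives changed the pseudocount, low-value filter, scaling, samples fitted, variance model, sex term, transcripts summed and library left out, and those on protein-coding transcripts, transcript levels and exon shares without 1 library were chosen after seeing the data. Mouse numbers differ between libraries, and replicate numbers were not taken as pairs. The sequence of 1 exon is not reported here.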

Additional observations from a re-analysis of the deposited data

How the results depend on the processing

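Counts of called factors stayed within 1.5 times the reported ones under other pseudocounts, filters, scalings, variance models, gene sums and sex as a term, apart from the following. Quantile normalization called 1 factor between knockout and TAC (Gata6) in place of 0. Exact permutation tests of single factors, without adjustment, gave 0 of 10 for TAC against control, where 3 libraries against 3 cannot go below 0.1, and 2 of 10 (Tbx5 and Mef2c) for knockout against TAC. For knockout against control these tests gave another set than limma at the same count. Tbx5, Mef2a, Hopx and Mef2c passed (exact permutation p = 0.0286 each), while Tbx20 did not (exact permutation p = 0.0571). Leaving out 1 library gave 4 to 5 factors in knockout against control, 4 to 6 in TAC against control and 0 between knockout and TAC. For transcript levels, alternatives chosen after seeing the data, those counts were 4 to 9, 4 to 8 and 0. Mef2 shares gave 0 calls throughout. No called value changed sign, and values that were not called did so in 133 cases of 51 results. Correlations of same-numbered libraries ran from -0.359 to 0.327. They were not set against libraries of unlike number, so they cannot settle whether replicate numbers pair the libraries. With a replicate block, 4 factors were called in knockout and 4 in TAC against control, where the Gata6 call was lost (adjusted p = 0.0519), and 7 and 7 transcripts. In knockout Mef2a-203 then passed (adjusted p = 0.0469), and the main Tbx5 form did not (adjusted p = 0.0783). FPKM without counts limits what low transcripts such as Mef2c-230 can show, and annotation-based shares depend on how Cufflinks divided reads between overlapping forms.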
